A study of Mus musculus with 2 samples.

Results

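The genes described here encode the proteins that release paused RNA polymerase II and those that sense and join broken DNA, including partners of the transcription regulator Aire. They were chosen by name, 37 genes in all, out of 23411 genes counted in the series. The series is RNA-seq of poly-A RNA from medullary thymic epithelial cells (mTEC), the cells of the thymus that show tissue antigens to T cells as these develop. B6 mice were used, 3 of them pooled, and their mTEC were divided by flow sorting according to surface MHC class II, high or low. Each group was 1 library, so 2 libraries were compared, and no treatment is named. The labels used here give no age and no sex. The MHC-II high fraction is the more mature one and holds the Aire-expressing cells, but neither fraction is a single cell type.

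Shortly after it starts, RNA polymerase II is held near the promoter by negative elongation factor (NELF) together with the DRB sensitivity-inducing factor (DSIF). The kinase P-TEFb, made of Cdk9 and a T-type cyclin, phosphorylates both and lets the polymerase go on. P-TEFb is kept inactive on the 7SK RNA by Hexim1 and Larp7, and is brought to genes by the super elongation complex. Aire is known to act at this release step. It is also known to bind topoisomerases, which cut and reseal DNA, and proteins that answer to DNA breaks, such as the DNA-dependent protein kinase with its Ku subunits.

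The promoters of 4 members are shown because these genes form the 2 protein pairs whose values open the account of end joining below. Xrcc5 and Xrcc6 encode the Ku heterodimer, whose transcripts differed unequally between the libraries. Lig4 and Xrcc4 encode the ligase complex, and their ratios were both above 1. The windows are from RefSeq, build GRCm38.p6, written 5′ to 3′ on the strand of the gene, and reach from 250 bases before the start of transcription to 25 bases after it. Capitals mark matches on either strand to GCATGCGC (the letters bound by NRF1), CCGGAAG (ETS factors), GGGCGG (SP and KLF factors) or CCAAT.
Xrcc5, chr1:72307171-72307445, plus strand: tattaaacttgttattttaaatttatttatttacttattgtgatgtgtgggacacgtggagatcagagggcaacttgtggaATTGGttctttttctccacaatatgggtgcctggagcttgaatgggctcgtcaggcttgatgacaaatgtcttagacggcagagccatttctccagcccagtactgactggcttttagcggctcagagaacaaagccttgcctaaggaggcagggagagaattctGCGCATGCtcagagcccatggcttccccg
Xrcc6, chr15:82016119-82016393, plus strand: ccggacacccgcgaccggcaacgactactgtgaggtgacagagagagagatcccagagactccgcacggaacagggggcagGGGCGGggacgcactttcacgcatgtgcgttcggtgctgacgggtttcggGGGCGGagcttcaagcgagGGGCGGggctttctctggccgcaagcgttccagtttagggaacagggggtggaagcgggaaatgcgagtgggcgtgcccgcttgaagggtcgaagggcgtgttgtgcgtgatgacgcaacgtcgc
Lig4, chr8:9977656-9977930, minus strand: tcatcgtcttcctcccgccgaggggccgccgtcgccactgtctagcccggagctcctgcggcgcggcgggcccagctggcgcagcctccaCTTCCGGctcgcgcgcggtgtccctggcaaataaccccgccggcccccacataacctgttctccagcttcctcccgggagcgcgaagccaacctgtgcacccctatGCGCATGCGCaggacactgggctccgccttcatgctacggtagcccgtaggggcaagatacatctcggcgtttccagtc
Xrcc4, chr13:90089584-90089858, minus strand: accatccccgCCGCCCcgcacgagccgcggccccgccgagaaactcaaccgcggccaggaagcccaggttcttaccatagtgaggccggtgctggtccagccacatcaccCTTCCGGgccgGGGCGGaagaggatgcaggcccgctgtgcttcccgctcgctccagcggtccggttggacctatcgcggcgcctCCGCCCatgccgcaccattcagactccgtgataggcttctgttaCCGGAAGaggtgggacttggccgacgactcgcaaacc
For Lig4, which has a second window in the table, the window farther upstream on its strand is shown. The Ku promoters have different letters in capitals. Xrcc5 has an NRF1 match across its start and 1 CCAAT match, while Xrcc6 has 3 GGGCGG matches and none for NRF1. The shown Lig4 window has 2 overlapping NRF1 matches, 1 on each strand and offset by 2 bases, and an ETS match. The other Lig4 window has an ETS match, 2 GGGCGG matches and none for NRF1. Xrcc4 has 2 ETS and 3 GGGCGG matches.

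RefSeq windows were found for 31 of the 37 members, 37 windows in all, and counts over them used 50 bases after the start. They held a median of 29 CpG against 7 in all 32851 windows of the table, and a median GC content of 64.0% against 52.7%. Xrcc5 was CpG-poor among the members, with 9 CpG and 48.0% GC, while Xrcc6 had 30 CpG, the shown Lig4 window 30 and Xrcc4 31. GGGCGG was found in 29 member windows, 78.4% against 35.7% of all windows. CCGGAAG was in 12 of them, 32.4% against 8.86%, and GCATGCGC in 5 (Atm, Hexim1, Lig4, Polr2b and Xrcc5), 13.5% against 2.71%. CCAAT was in 13, 35.1% against 37.4%. TATAAA was in 3 (Atm, Nelfb and Polr2c), 8.11% against 13.6%. TGACG, which is also part of the longer letters TGACGTCA, was in 16, 43.2% against 20.8%. Matches on either strand were counted, and a match is a description of the letters, not of a bound site. No window is given for Prkdc, Rad50, Nbn, Polr2d, Nelfcd and Nelfe.

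Reads on genes came to 138368535 in the MHC-II high and 56077479 in the MHC-II low library, and 17438 genes had a mean of at least 1 CPM and were tested. CPM are read counts scaled to the library total, here a total adjusted by TMM, a method that takes most genes to be equal. A gene is called higher or lower when the whole exact 95% interval of its ratio, MHC-II high over MHC-II low, lies beyond 2-fold. The intervals take every read as an independent count and cover counting error at most. The reads carry no molecular identifiers, so PCR copies of the same molecule cannot be told apart. The intervals may therefore be too narrow even for counting error, and limits close to 1 are to be read with this in mind. With 1 library per group, no difference has a replicate check. Unscaled read totals add 0.29 to every log2 ratio, and the totals behind the deposited RPKM values (reads scaled to transcript length and to a read total of the library) add 1.003. Of 8 mature mTEC markers 6 were called higher, and the list summed to 10168 against 5812 CPM, with Aire at 571 against 21.0 CPM. Most reads of this list were on the MHC class II genes H2-Aa (4485 against 2240 CPM) and H2-Ab1 (4128 against 3266 CPM). Neither was called, with ratios of 2.00 and 1.26, and both belong to the class by which the cells were sorted. Immature and CCL21 mTEC markers were lower in 4 of 6 cases (summed 1885 against 15588 CPM, most reads Krt5 and Ccl21a). General thymic epithelial markers were high in both, 4167 against 5231 CPM with 1 of 5 higher, most reads Krt8 and Krt18. Endothelial markers were lower in 6 of 6 cases (62.1 against 434 CPM, most reads Vwf and Pecam1) and fibroblast and mural markers in 4 of 6 (174 against 961 CPM, Dcn and Col3a1). Red blood cell markers were lower in 3 of 4 tested (70.4 against 2628 CPM, Hba-a1 and Hbb-bs). Dendritic cell and macrophage markers were higher in 4 of 6 tested (65.2 against 26.1 CPM, Zbtb46 and Csf1r) and B cell markers in 2 of 4 (29.5 against 23.8 CPM, Cd79b and Ms4a1). Of 8 thymocyte markers tested, 1 was higher and 2 lower (58.5 against 86.0 CPM, Ptprc and Lck). Markers of dividing cells were higher in 7 of 10 cases, 552 against 206 CPM, with Mki67 and Pcna having the most reads. No listed marker was at 0 reads in either library. In such sorted pools, fewer cells of a type and less RNA per cell cannot be told apart, and the part of these markers in the results on the members was not tested except where a value is given.

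All 37 members had reads in both libraries and passed the minimum. Their reads ran from 573 (Nhej1) to 34980 (Aff4) in the high library, and from 222 to 9460 for the same genes in the low one. Only Rad50 was called higher and only Xrcc5 lower. Over all tested genes 14.5% were called higher and 10.9% lower. The members' median log2 ratio was 0.06, beside −0.01 over all tested genes. The central 50% of the members lay between −0.22 and 0.40, against −0.58 and 0.65 for all tested genes, and 26 of 37 (70.3%) were within 1.5-fold against 48.5%. Genes with mean CPM in the members' range had 52.5% within 1.5-fold. The ratio was above 1 for 20 members (54.1%) and below 1 for 17, near the 49.3% above 1 over all tested genes. The interval lay wholly above 1 for 19 and wholly below 1 for 16, and it included 1 for Nbn and Nhej1. Of the 17438 tested genes, 7679 had intervals wholly above 1 and 7828 wholly below 1.

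Some of these directions depend on the scaling. Of 37 members, 9 crossed 1 with unscaled totals and 16 with the totals behind the RPKM values, while the ratios above 1 with TMM totals and that of Xrcc5 kept their direction. With unscaled totals 29 member ratios were above 1, beside 10965 of the 17438 tested genes. Rad50, Lig4 and Ell2 were then called higher and none lower, where 19.8% of genes were called higher and 7.35% lower. With the totals behind the RPKM values 36 were above 1, Xrcc5 being the exception, beside 15103 of the 17438 tested genes. On that scale 19 members were called higher and 0 lower, where 44.2% of the same genes were called higher and 3.26% lower. Unscaled and RPKM totals only raise ratios, so the higher call of Rad50 could not be lost on them. Xrcc5 was called lower on the TMM scale alone. With a 1.5-fold limit and TMM totals, the calls were 6 higher (Rad50, Lig4, Ell2, Xrcc4, Atm and Larp7) and 4 lower (Xrcc5, Nelfb, Nelfa and Nelfe), against 22.8% and 20.4% of all tested genes. Differences between members do not change with the scaling, and the level of one gene relative to another is therefore given for pairs that work together, 27 pairs in all. The reads keep no strand, and exons of 16 members overlap a gene on the other strand. The part of such shared reads in the pairs was not tested.

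**Figure D1:**
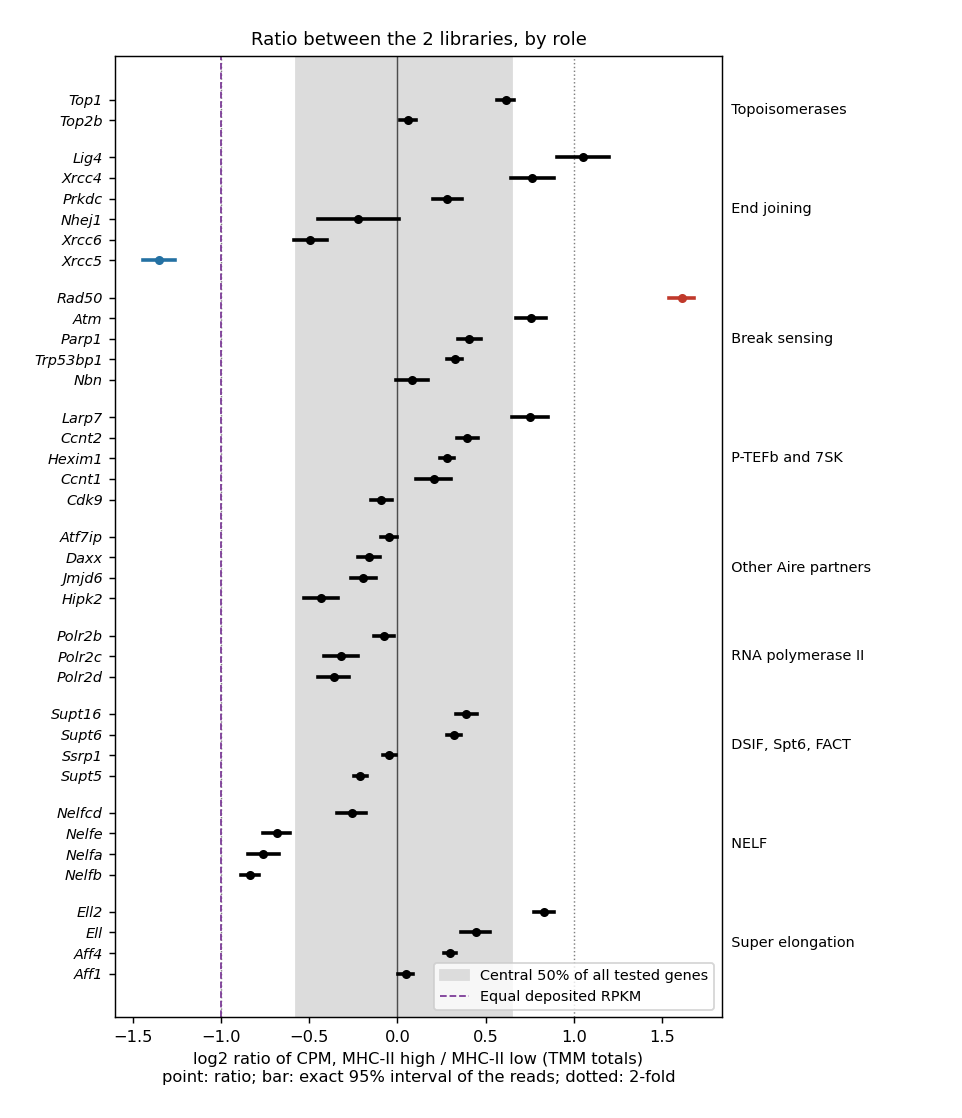
Each point is the log2 ratio of CPM (MHC-II high over MHC-II low, TMM totals) of a member and each bar its exact 95% interval, by role, with the grey band holding the central 50% of all tested genes. Rad50 (1.61, red) and Xrcc5 (−1.35, blue) lie wholly beyond the 2-fold lines; the dashed line, where RPKM values are equal, covers the lower 2-fold line, and only Xrcc5 lies below it.

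The topoisomerases come first, since Aire is known to bind them. Top1 nicks 1 strand of DNA to relax it ahead of the polymerase and had 20046 reads (131 CPM) in the high and 4354 reads (85.8 CPM) in the low library. Its ratio was 1.53 (interval 1.48 to 1.58). Top2b, the form of topoisomerase II that cells keep when they do not divide, had 16700 reads (109 CPM) against 5325 reads (105 CPM), a ratio of 1.04 (1.01 to 1.07). The 2 genes were therefore unequal in their change. Per length, Top1 transcripts were at 1.76 times the level of Top2b in the high and 1.20 times in the low library, a 1.47-fold change of the ratio (1.40 to 1.54).

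In end joining, Ku binds the broken ends, the kinase Prkdc (DNA-PKcs) joins it, and the ligase Lig4 with its scaffold Xrcc4 and the factor Nhej1 seals them. Xrcc5, the Ku80 gene, had 2146 reads (14.0 CPM) in the high and 1820 reads (35.8 CPM) in the low library. This was 2.55-fold lower in the high library (interval 2.40 to 2.72). In RPKM it was at 3.93 against 5.003, the one member whose deposited value was lower in the MHC-II high library. Its log2 ratio was −1.35 with TMM, −1.07 with unscaled and −0.35 with RPKM totals, and the call is lost with the latter 2. Of all tested genes, 91.7% had a higher ratio. Xrcc6, the Ku70 gene, had 3035 reads (19.9 CPM) against 1419 reads (27.9 CPM). Its ratio was 0.710 (0.667 to 0.757), which turned above 1 with RPKM totals (log2 0.51). The Ku transcripts were near equal per length in the low library, with Xrcc6 at 0.943 times the level of Xrcc5, and unequal in the high library, at 1.71 times. That is a 1.81-fold change (1.66 to 1.98), and no scaling alters it. Exons of Xrcc6 overlap Desi1 on the other strand (6303 against 3794 reads), and the part of shared reads in this change was not tested.

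The catalytic subunit and the ligase genes differed from Ku. Prkdc had 5498 reads (36.0 CPM) against 1501 reads (29.6 CPM), a ratio of 1.22 (1.15 to 1.29). Relative to Xrcc5 its level per length was 0.517 in the high library and 0.166 in the low one, a change of 3.11-fold (2.85 to 3.38). Lig4 had 2757 reads (18.0 CPM) against 442 reads (8.71 CPM), and its ratio of 2.07 (1.87 to 2.30) had an interval that reached below 2-fold. Just inside and outside the call, then, were Rad50 at 3.05 and Lig4 at 2.07 on the higher side, and Xrcc5 at 0.392 and Nelfb at 0.561 on the lower. Xrcc4 had 3490 reads (22.8 CPM) against 682 reads (13.4 CPM), a ratio of 1.70 (1.57 to 1.85). Both genes of the ligase complex were thus above 1, and the level of Lig4 relative to Xrcc4 changed 1.22-fold (1.07 to 1.39). Exons of Xrcc4 overlap Tmem167 on the other strand (11583 against 2684 reads), and the part of shared reads was not tested. Nhej1, the XLF gene, had the fewest reads of the members, 573 (3.75 CPM) against 222 (4.37 CPM). The interval of its ratio included 1 (0.857, 0.733 to 1.01), and Lig4 gained 2.42-fold on it (1.998 to 2.92). Over the 6 end joining genes the median log2 ratio was 0.03, with 1 lower and 0 higher, and ratios reached from Xrcc5 to Lig4.

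Break sensing members recognise ends, mark the chromatin around them and signal. All 5 ratios were above 1 with TMM totals, with a median log2 ratio of 0.41. Unscaled and RPKM totals raise every ratio, so these directions could not turn on those scales. Rad50 is the ATPase of the complex with Mre11 and Nbn that tethers DNA ends. It had 16782 reads (109.8 CPM) in the high and 1825 reads (35.9 CPM) in the low library, a ratio of 3.05 (2.91 to 3.21), and 15.2 against 2.49 in RPKM. Of all tested genes 9.87% had a higher ratio. The intervals of its partners included 1. Nbn had 4085 reads (26.7 CPM) against 1280 reads (25.2 CPM), a ratio of 1.06 (0.995 to 1.13). Mre11a, the nuclease gene, which is not a member, was at 15.0 against 13.9 CPM, a ratio of 1.08 (0.991 to 1.17). Rad50 was at 1.99 times the level per length of Nbn in the high and 0.689 times in the low library, a 2.88-fold change (2.66 to 3.12). Against Mre11a the change was 2.83-fold (2.57 to 3.12), while Nbn against Mre11a changed 0.983-fold (0.884 to 1.09).

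The remaining sensing genes were within 2-fold. Atm, the kinase activated at breaks by that complex, had 7059 reads (46.2 CPM) against 1387 reads (27.3 CPM), a ratio of 1.69 (1.60 to 1.79). Parp1, which adds ADP-ribose chains at breaks, had 9651 reads (63.1 CPM) against 2419 reads (47.6 CPM), a ratio of 1.33 (1.27 to 1.39). Trp53bp1, whose product 53BP1 shields ends from resection, had 21778 reads (142 CPM) against 5775 reads (114 CPM), a ratio of 1.25 (1.22 to 1.29). Markers of dividing cells were 552 against 206 CPM in sum, and their part in the values of the repair genes was not tested.

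The genes beside Rad50 and Xrcc5 on their chromosomes differed in the same direction, which was seen after the values were known. Rad50 lies between the T helper 2 cytokine genes Il13 and Il5. Il13 had 19371 reads (126.7 CPM) in the high and 268 reads (5.28 CPM) in the low library, a ratio of 24.0 (21.3 to 27.2). Il5 had 1895 reads against 41, a ratio of 15.4 (11.3 to 21.5), and Il4, beyond Il13, had 743 against 30, a ratio of 8.23 (5.71 to 12.3). The ratio of Rad50 was thus the smallest of these 4, and the genes next outside had log2 ratios of 0.76 (Kif3a) and 0.25 (Irf1). Xrcc5 lies between Tmem169, with 147 against 191 reads and 3.91-fold lower, and Marchf4, with 164 against 167 reads and 3.07-fold lower. Farther out Pecr (log2 −1.25), Rpl37a (−1.21) and Igfbp2 (−2.71) were lower too, whereas Mreg was 3.09-fold higher. Rad50 was the one member with both tested neighbours called higher, and Xrcc5 the one with both called lower. Among 17148 genes in order, 2.83% had both neighbours higher and 1.65% both lower. For genes that were themselves called, these shares were 8.996% of 2490 higher and 4.69% of 1877 lower genes. The members have 74 neighbours in all, of which 7 were called higher and 10 lower.

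**Figure D2:**
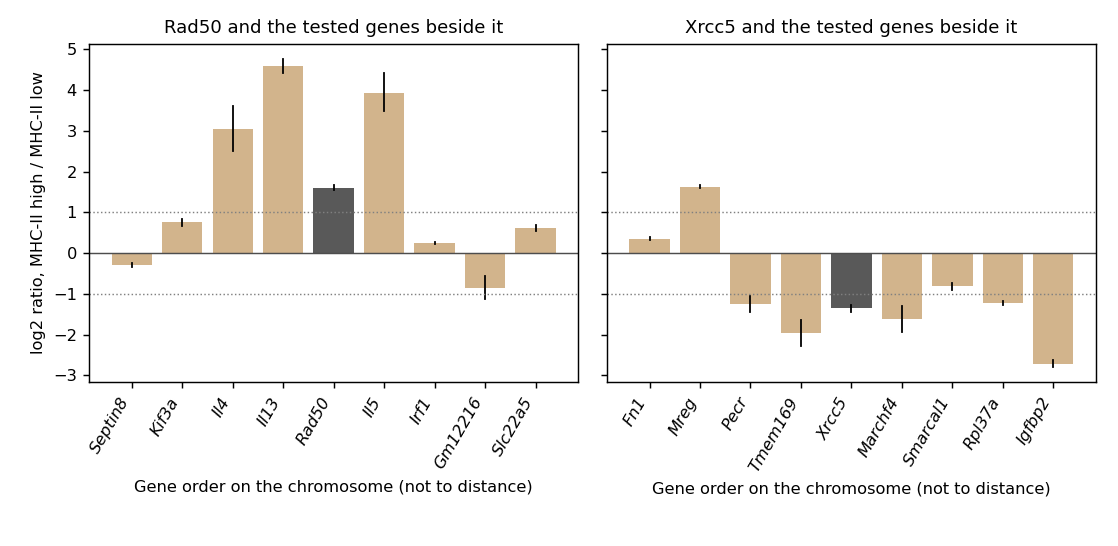
Bars give the log2 ratio (MHC-II high over MHC-II low, TMM totals) of Rad50, of Xrcc5 (dark) and of the 4 tested genes on either side, in chromosomal order and not to distance; lines are exact 95% intervals of the reads and dotted lines mark 2-fold. Rad50 (1.61) stands between Il13 (4.59) and Il5 (3.94), and Xrcc5 (−1.35) between Tmem169 (−1.97) and Marchf4 (−1.62).

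The kinase that releases the polymerase differed little. Cdk9 had 8744 reads (57.2 CPM) in the high and 3098 reads (61.0 CPM) in the low library, a ratio of 0.938 (0.900 to 0.977) that turned above 1 with unscaled and RPKM totals. Its cyclins were Ccnt1, with 3599 reads (23.5 CPM) against 1037 (20.4 CPM) and a ratio of 1.15 (1.08 to 1.24), and Ccnt2. Ccnt2 had 11267 reads (73.7 CPM) against 2842 (56.0 CPM), a ratio of 1.32 (1.26 to 1.37). Both cyclins gained on the kinase per length, Ccnt1 by 1.23-fold (1.13 to 1.33) and Ccnt2 by 1.40-fold (1.32 to 1.49). Ccnt2 relative to Ccnt1 changed 1.14-fold (1.05 to 1.24).

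The proteins that hold P-TEFb inactive on 7SK RNA had ratios above 1 as well. Hexim1, the inhibitor, had 22953 reads (150.2 CPM) against 6271 reads (124 CPM), a ratio of 1.22 (1.18 to 1.25). Larp7, which binds and protects 7SK RNA, had 4688 reads (30.7 CPM) against 926 reads (18.2 CPM), a ratio of 1.68 (1.57 to 1.81). Relative to Cdk9, the level per length of Larp7 was 0.857 in the high library and 0.478 in the low one, a 1.79-fold change (1.65 to 1.95), and Hexim1 changed 1.30-fold (1.23 to 1.36). The inhibitor and the 7SK-binding protein did not change in step, as Hexim1 relative to Larp7 went from 4.22 in the low to 3.05 in the high library, a 0.723-fold change (0.669 to 0.780). The 5 genes had a median log2 ratio of 0.28, with 0 called in either direction, and 4 of 5 ratios above 1.

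A further 4 members are known to bind Aire or to act with it outside these complexes, and all had ratios below 1 with TMM totals. Hipk2, a kinase that phosphorylates Aire, had 2883 reads (18.9 CPM) against 1292 reads (25.4 CPM), a ratio of 0.741 (0.694 to 0.792). Jmjd6, a dioxygenase, had 5967 reads (39.0 CPM) against 2266 reads (44.6 CPM), a ratio of 0.875 (0.833 to 0.918). Daxx, a histone chaperone, had 7800 reads (51.0 CPM) against 2902 reads (57.2 CPM), a ratio of 0.893 (0.855 to 0.932). Atf7ip, which acts with repressors that bind methylated DNA, had 16106 reads (105 CPM) against 5529 reads (109 CPM), a ratio of 0.968 (0.938 to 0.998). These differences were small, with a median log2 ratio of −0.18. The ratios of Jmjd6, Daxx and Atf7ip turned above 1 with unscaled totals and all 4 did so with RPKM totals.

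The polymerase subunits among the members had ratios below 1 with TMM totals. Polr2b, the second largest subunit, had 9083 reads (59.4 CPM) against 3181 reads (62.7 CPM), a ratio of 0.949 (0.911 to 0.988). Polr2c, which helps the subunits assemble, had 2960 reads (19.4 CPM) against 1228 reads (24.2 CPM), a ratio of 0.801 (0.749 to 0.856). Polr2d, which lies in the stalk of the enzyme, had 3563 reads (23.3 CPM) against 1521 reads (30.0 CPM), a ratio of 0.778 (0.733 to 0.827). Polr2b turned above 1 with unscaled totals and all 3 with RPKM totals. Relative to Polr2b, Polr2c changed 0.844-fold (0.780 to 0.913) and Polr2d 0.820-fold (0.763 to 0.883).

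The factors that travel with the polymerase split. Supt5, the large subunit of DSIF, had 23675 reads (155 CPM) against 9097 reads (179 CPM), a ratio of 0.865 (0.844 to 0.886). Supt6, a histone chaperone of elongating polymerase, had 24024 reads (157 CPM) against 6383 reads (126 CPM), a ratio of 1.25 (1.22 to 1.29). DSIF therefore lost against Spt6, with a level per length of 1.74 in the high library and 2.52 in the low one, a 0.691-fold change (0.666 to 0.717). The FACT complex, which takes nucleosomes apart in front of the polymerase, has the subunits Supt16 and Ssrp1. Supt16 had 10869 reads (71.1 CPM) against 2753 reads (54.2 CPM), a ratio of 1.31 (1.26 to 1.37). Ssrp1 had 22304 reads (146 CPM) against 7652 reads (151 CPM), a ratio of 0.968 (0.943 to 0.994). Ssrp1 transcripts thus went from 4.50 times the level of Supt16 in the low to 3.32 times in the high library, a 0.738-fold change (0.703 to 0.776). The ratios of Supt5 and Ssrp1 turned above 1 with unscaled and RPKM totals. Supt16 relative to Supt6 changed 1.05-fold, with an interval that included 1 (0.997 to 1.10).

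NELF, which holds the polymerase at its pause, had the lowest median log2 ratio of the member groups, −0.72 over its 4 subunit genes, with none called beyond 2-fold. Nelfb had 7879 reads (51.6 CPM) in the high and 4669 reads (92.0 CPM) in the low library, a ratio of 0.561 (0.541 to 0.581). Nelfa, which contacts the polymerase, had 2837 reads (18.6 CPM) against 1596 reads (31.4 CPM), a ratio of 0.590 (0.555 to 0.628). Nelfe, the subunit that binds RNA, had 3946 reads (25.8 CPM) against 2107 reads (41.5 CPM), a ratio of 0.622 (0.590 to 0.656). Nelfcd stood apart from these 3, with 4221 reads (27.6 CPM) against 1678 reads (33.1 CPM) and a ratio of 0.836 (0.789 to 0.885). On the other strand, exons of Nelfcd overlap Ctsz (43899 against 7591 reads, log2 ratio 0.94) and those of Nelfa overlap Nsd2 (log2 ratio 0.56). The reads keep no strand, and the part of shared reads in these ratios and in the pairs below was not tested. Nelfb and Nelfa kept step, with a change of 0.949-fold whose interval included 1 (0.883 to 1.02), whereas Nelfb relative to Nelfcd changed 0.671-fold (0.627 to 0.718). Relative to Nelfe, Nelfb changed 0.901-fold (0.845 to 0.961), and Nelfcd gained 1.42-fold on Nelfa (1.30 to 1.54). Nelfcd turned above 1 with unscaled totals, and with RPKM totals all 4 were above 1, at a median log2 ratio of 0.28.

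The super elongation complex, which carries P-TEFb to genes, had 4 ratios above 1. Ell2, an elongation factor known from antibody-secreting cells, had 16001 reads (105 CPM) against 2984 reads (58.8 CPM), a ratio of 1.78 (1.71 to 1.85). Its relative Ell had 6211 reads (40.6 CPM) against 1518 reads (29.9 CPM), a ratio of 1.36 (1.28 to 1.44). The scaffold Aff4 had the most reads of all members, 34980 (229 CPM) against 9460 (186 CPM), a ratio of 1.23 (1.20 to 1.26). Aff1, the other scaffold, had 19753 reads (129 CPM) against 6355 reads (125 CPM), a ratio of 1.03 (1.004 to 1.06). Within the families, Ell2 gained 1.31-fold on Ell (1.22 to 1.40) and Aff4 gained 1.19-fold on Aff1 (1.15 to 1.23). The median log2 ratio was 0.37, and 0 of the 4 were called.

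The intervals of the 4 NELF members and of the 4 members of the super elongation complex did not overlap. The lowest of the 4 lower limits in the complex was 1.004 (Aff1) and the highest upper limit in NELF was 0.885 (Nelfcd). Scaling shifts all 8 genes alike and cannot change this separation. With TMM totals, intervals lay wholly above 1 for 7679 and wholly below 1 for 7828 of the 17438 tested genes. The 4 other Aire partners and the 3 polymerase members also lay wholly below 1, and both topoisomerases wholly above 1. The separation holds for these 8 genes and not for every gene of the complex. Mllt3, which is not a member and also works with the complex, had a ratio of 0.354 (0.326 to 0.385), below all 4 NELF genes. With 1 library each, the separation is between these 2 libraries, and how often groups of genes separate in this way was not tested. Other members also differed from Nelfb in their change. Hexim1, the P-TEFb inhibitor, was at 2.26 times the level per length of Nelfb in the high and 1.04 times in the low library, a 2.17-fold change (2.07 to 2.27). Supt5, whose product pairs with NELF at the pause, gained 1.54-fold on Nelfb (1.48 to 1.61).

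Per length, Ssrp1 had the highest level of the members in both libraries, at 37.6 and 19.4 RPKM. Hexim1 (31.6 and 13.0 RPKM) and Supt5 (31.5 and 18.2 RPKM) followed in the high library, in the opposite order in the low one. The lowest were Prkdc in the high (2.03 RPKM) and Lig4 in the low library (0.761 RPKM). Rad50 moved most in this order, from rank 32 in the low to rank 11 in the high library, followed by Nelfe, from 7 to 19, and Ell2, from 16 to 5. Nelfb went from rank 4 to 14, Nelfa from 21 to 31 and Xrcc5 from 23 to 32. Log2 RPKM of the members in the libraries had a Pearson correlation of 0.857 and a Spearman correlation of 0.821 across 37 genes, against 0.854 and 0.869 across all tested genes. Genes are not replicates, and these are descriptions.

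**Figure D3:**
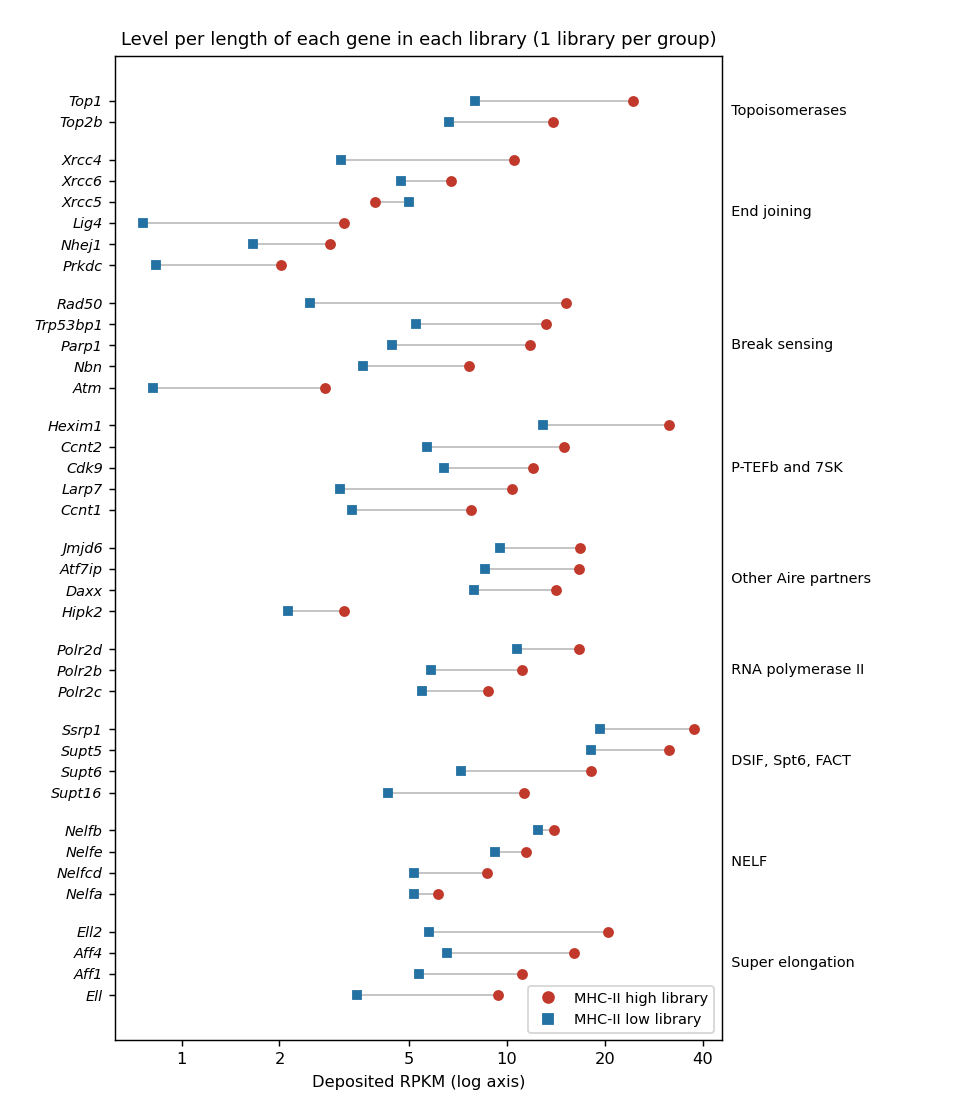
Deposited RPKM (log axis) of each member in the MHC-II high (circle) and the MHC-II low library (square), joined by a line, by role. The RPKM scale puts 36 of 37 members, and 15103 of the 17438 tested genes, higher in the MHC-II high library. The longest lines belong to Rad50 (15.2 and 2.49) and Lig4 (3.16 and 0.761). Xrcc5 (3.93 and 5.003) alone among the members runs the other way.

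Longer transcripts among the members tended to have higher ratios, an observation made after the values were seen. The ratio was above 1 for 1 of 6 members under 2000 bases (median log2 ratio −0.27), for 9 of 19 of 2000 to under 4000 bases (−0.05) and for 10 of 12 of 4000 bases or more (0.31). Over all tested genes the medians in these classes were −0.14, 0.01 and 0.09, and 43.6%, 50.5% and 54.3% of ratios were above 1. Across the 37 members the Pearson correlation of log2 length with log2 ratio was 0.40 and the Spearman correlation 0.47. Without Rad50 and Xrcc5 they were 0.41 and 0.45, and over all tested genes −0.02 and 0.05. Set against the median of other tested genes whose length was within 10%, Rad50 stood 1.54 higher in log2 ratio, Lig4 0.99, Xrcc4 0.89 and Ell2 0.80. Xrcc5 was at a difference of −1.38, Nelfb at −0.85, Nelfa at −0.72 and Nelfe at −0.57.

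**Figure D4:**
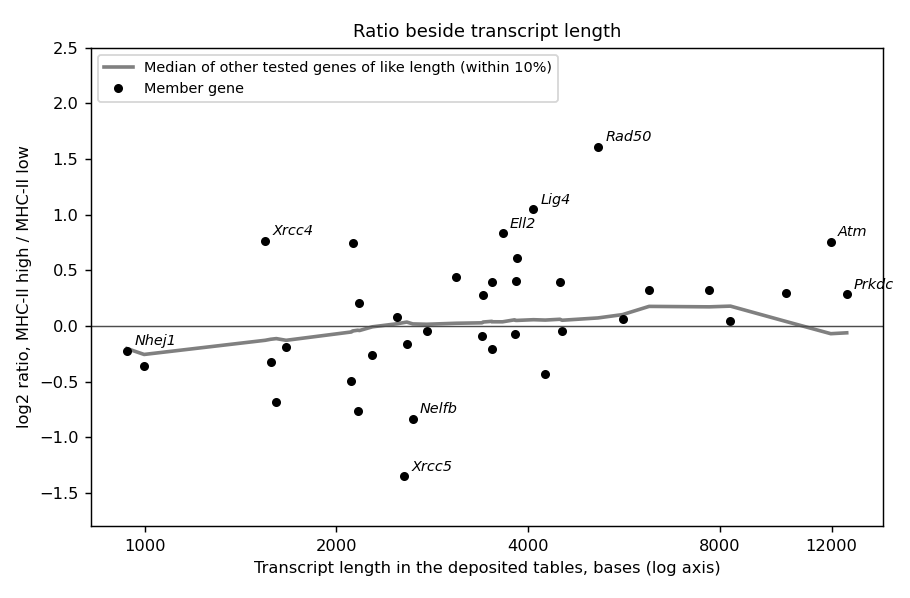
Log2 ratio (MHC-II high over MHC-II low, TMM totals) of each member against transcript length in bases (log axis), with a grey line for the median of other tested genes of like length. Xrcc4 lies above the line among the short transcripts. Ratios are above 1 for 10 of 12 members of 4000 bases or more, against 54.3% of all tested genes of that length. All member ratios but that of Xrcc5 are above 1 with RPKM totals.

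Other genes of the same pathways were listed by name, 70 entries in all, of which 66 were found in the tables. Like the 3 polymerase members (median log2 ratio −0.32), the other RNA polymerase II subunits had ratios below 1. These were 8 of 8, with 0 called and a lower median of −0.67. One of them turned above 1 with unscaled totals and all 8 with RPKM totals, where the median was 0.33. Polr2m, whose product associates with the polymerase and is also known as Gdown1, had the most reads, at 145 against 208 CPM. Among 27 other elongation and pausing genes the median was 0.07, and 1 was called in each direction. Ell3, the third gene of the Ell family, was at 10.9 against 4.10 CPM, a ratio of 2.66 (2.30 to 3.09). Mllt3, which reads histone acylation for the super elongation complex, was lower, at 7.72 against 21.8 CPM and a ratio of 0.354 (0.326 to 0.385). Brd2, a reader of acetylated histones, had the most reads, at 542 against 320 CPM (ratio 1.69, interval 1.66 to 1.72).

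Of 27 other break repair genes, 4 were higher and 0 lower, with a median log2 ratio of 0.20. The share called higher was near the 14.5% of all tested genes, and the 4 are described because every called gene of the list is named. Rif1, which works with 53BP1 to shield ends, was at 155 against 53.2 CPM, a ratio of 2.91 (2.80 to 3.03). Dclre1c, the Artemis nuclease that opens hairpin ends with DNA-PKcs, was at 24.6 against 7.21 CPM, a ratio of 3.41 (3.06 to 3.81). Brca1, a factor of recombination repair, was at 28.5 against 8.35 CPM (3.41, interval 3.08 to 3.77) and the checkpoint kinase Chek1 at 10.1 against 3.90 CPM (2.59, interval 2.23 to 3.01). Brca1, Chek1 and the topoisomerase Top2a are also known to be high in dividing cells, whose markers had a median log2 ratio of 2.05 here, and the part of dividing cells in these values was not tested. Of 4 other topoisomerases Top2a was higher, at 105 against 17.6 CPM and a ratio of 5.96 (5.57 to 6.39), and the others had ratios below 1. Polr2a, Polr2i and Aff3 were not analysed here, and the entry Gdown1 is another name of Polr2m.

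**Figure D5:**
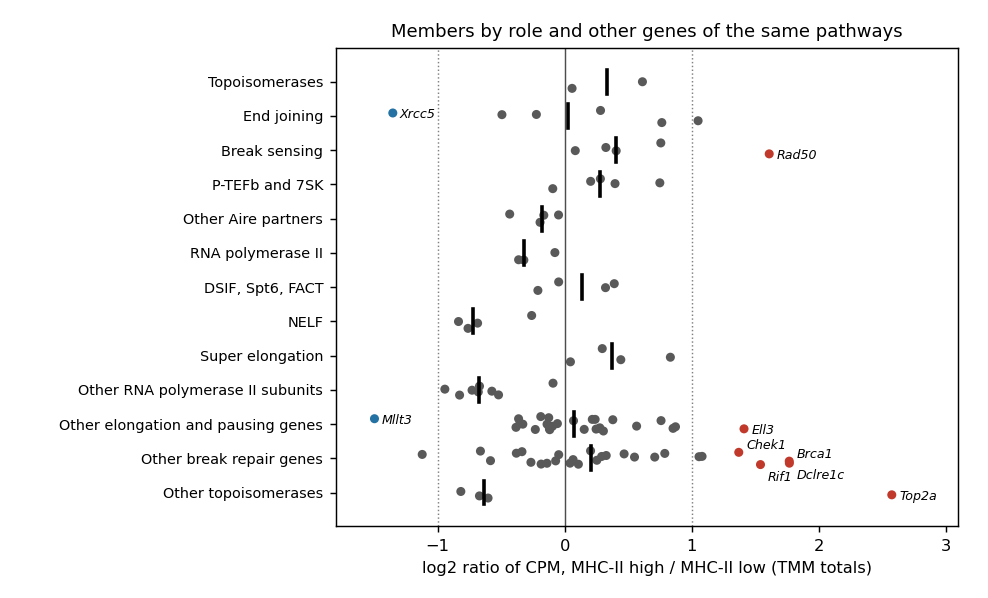
Points are log2 ratios of CPM (MHC-II high over MHC-II low, TMM totals) of single genes, by role for the members and by list for other pathway genes, with a bar at each median and dotted lines at 2-fold. Coloured points are the called genes; the NELF genes (median −0.72) and the other RNA polymerase II subunits (−0.67) lie left of 0 with TMM totals, and right of it with RPKM totals.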

How the data were processed

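Gene expression was measured by poly-A RNA-seq in 1 library of MHC-II high and 1 of MHC-II low mTEC, grouped by the labels. Per the labels' protocols the cells came from a pool of 3 mice, and per the series' design text each library used about 100 ng of RNA, the TruSeq method without strand information and 15 PCR cycles, with paired reads (2 ends, 100 bases each). Bowtie 1.0.0, CASAVA, bedtools and build mm9 are named in the submitters' processing notes. Their settings and the annotation are not given in the sources used here. The authors deposited, per the file headers, a read count, a length and an RPKM value for each RefSeq transcript. The deposited RPKM values equal the counts per length over read totals of 213854095 (high) and 142330178 (low).

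Stray read records (18 and 36 lines) were left out, and genomic copies of an accession (840 lines of the high table) were summed. Of 29920 accessions, 29800 were in both tables with the same length and entered. Symbols came from RefSeq GRCm38.p6 (29233 accessions) and GENCODE vM21 (173), and 394 had none. These tables also gave gene order and promoter windows, and no coordinate was carried over from mm9. Each gene was represented by the transcript with most reads over both libraries. Of the members, 31 had 1 transcript, and in the 6 with several these differed by at most 0.03 in log2 ratio. TMM totals (152834157 and 50769794, edgeR 4.0.16, R 4.3.3) were estimated on genes with a mean unscaled CPM of at least 1. This gene set was settled after an estimate over all genes had given other totals. Intervals are exact 95% Clopper-Pearson intervals of the read ratio (scipy 1.17.1), and no p-value is given, as each group has 1 library. The computation was tested on simulated independent counts drawn and compared with the same TMM totals. Such counts cannot test the scaling, PCR copies or variation between libraries. DESeq2 1.42.0 gave alternative size factors.

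The members, lists and call rule were chosen with earlier results of these data known. All members are named. From other pathway lists the called genes and the gene with most reads are named, and from marker lists the 2 with most reads. Aire, the genes beside Rad50 and Xrcc5, Mre11a, the gene pairs, the length classes and the genes on the opposite strand were chosen after values were seen. So was the contrast of NELF with the super elongation complex.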

Additional observations from a re-analysis of the deposited data

How the results depend on the processing

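The counts of called members depend on the scaling. With unscaled read totals 3 members were higher (Rad50, Lig4 and Ell2) and 0 lower, at a median log2 ratio of 0.35. With the totals behind the RPKM values 19 were higher and 0 lower, at a median of 1.06, where 44.2% of all tested genes were higher and 3.26% lower. A limit of 1.5-fold gave 6 higher and 4 lower, beside 22.8% and 20.4% of all tested genes. Counting ratios beyond 2-fold without their intervals gave 2 higher (Rad50 and Lig4). TMM over all genes, an alternative added after seeing the data, also gave 2 higher, and 1 lower. The shares of all genes without intervals and with TMM over all genes are not given here. Ratios crossed 1 for 9 members with unscaled totals, for 16 with RPKM totals and for 4 with TMM over all genes. The calls of 1 higher and 1 lower stayed at that number with DESeq2 size factors, TMM without the listed and most abundant genes, no minimum level, a mean CPM of at least 5 (which 36 members passed), the longest transcript, reads summed over transcripts, accessions of 1 table read as 0 in the other, and the first line of an accession only. Most of these settings could hardly move a call. All members passed the minimum, so leaving it out changed no ratio, and a higher minimum can only drop genes. Among the others, the largest shift of a member's log2 ratio was 0.017, with reads summed over transcripts. No paired analysis was possible because each group has 1 library. Depth limits Nhej1 most, with 222 reads in the low library.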

Other observations

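The kit does not keep strand, so reads from overlapping genes on opposite strands cannot be told apart. In GENCODE vM21, exons of 16 of the 37 members overlap a gene on the other strand, Rad50 and Xrcc5 not among them. Ssrp1 overlaps the ATP receptor gene P2rx3, with 4294 reads against 212 and a log2 ratio of 2.75. Polr2b overlaps Igfbp7, with 1119 against 4640 reads and a log2 ratio of −3.64. Nelfcd overlaps the cathepsin gene Ctsz (43899 against 7591 reads, log2 0.94), Xrcc6 overlaps Desi1 (6303 against 3794 reads, −0.86) and Top2b overlaps Rarb (635 against 511 reads, −1.28). Xrcc4 overlaps Tmem167 (11583 against 2684 reads, 0.52) and Nelfa overlaps Nsd2 (7848 against 1773 reads, 0.56). How many of these reads were counted on both genes was not tested. No member had the same pair of read counts as another gene.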
